A study of Mus musculus with 19 samples.

Results

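Direct cDNA long reads of mouse neural progenitor cells were compared between Mettl14 knockout (KO) and wild-type (WT) cultures. The comparison rests on 4 samples of the 19 in the series, 2 per genotype. Both samples of a genotype were pooled into 1 transcript assembly per assembler, so values from cDNA carry no replicate error and no test. Multi-exon transcripts were assigned to genes of the GENCODE M21 annotation by an exactly shared intron, and the StringTie abundances of a gene's transcripts were summed as its level (TPM, transcripts scaled to a fixed total within each assembly). By this rule 28728 of 31500 multi-exon transcripts in WT and 27452 of 30173 in KO were assigned, covering 11590 and 11020 genes. A second assembler, FLAIR, gave 23586 multi-exon transcripts in WT and 22090 in KO, without abundances.

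The cells were isolated from cortices of Mettl14 wild-type and conditional knockout embryos. The medium of all cultures held 20 ng/ml of FGF2 and the same of EGF, with heparin and B27, and dishes were coated with Matrigel. The labels name neither the Cre driver of the conditional allele nor the embryos' ages, and they do not say whether replicates were separate cultures. Direct cDNA was made from total RNA without amplification in the kit's protocol and read on a nanopore device. Native RNA long reads of the same genotypes, also pooled from 2 samples each, and 4 WT and 4 KO short-read ladder libraries, in which mRNA was parted by length into 7 bands, are given beside the cDNA values, the latter in counts scaled to the library total (CPM). The ladder libraries held 103752000 to 126922000 estimated counts each and are the replicated comparison of the genotypes.

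Mettl14 is the RNA-binding partner of the methyltransferase Mettl3, and together they write N6-methyladenosine (m6A) into mRNA. Reader proteins of the YTH family bind the mark and, in many cells, speed the decay of marked transcripts. In the embryonic cortex the mark is known to affect how long progenitors cycle before they give rise to neurons and glia. A long read spans many exons of a molecule, so an assembly of long reads gives the order of introns (the intron chain) and both transcript ends, which short reads give only by inference.

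Several features of the libraries precede the results. Transcripts assigned to genes held 6.14% of the TPM in WT and 7.57% in KO. Unassigned transcripts of 5000 TPM or more lay in 18 loci over the genotypes together, and held 79.1% of the TPM in WT and 79.6% in KO. The loci on chr7, chr10 and chr13 held such a transcript in WT alone. At 1 TPM, mean read coverage per base was 15.7 in WT and 12.4 in KO, so levels below 0.1 TPM stand for about 1 read. The median log2 ratio of the 6286 genes at 1 TPM or more in both genotypes was 0.23 in favour of KO (1.17-fold), and centred log2 values below are relative to it. Of the cell type markers looked for, none of 10 microglial genes was assembled, and 2 of 10 meningeal fibroblast genes and 2 of 10 endothelial genes were, in KO alone and at 0.159 to 0.243 TPM. Neural progenitor markers were present in both genotypes, 17 of 20 in either assembly, with a summed level of 248 TPM in WT and 441 TPM in KO. Fabp7 alone held 6.23 TPM of the WT sum and 258 TPM of the KO sum. After centring, 2 of the 17 were 2-fold or more higher in KO and 8 lower, with a list median of -0.18. The Y-linked helicase gene Ddx3y was at 2.01 TPM in WT cDNA and 0.503 TPM in KO cDNA, and at 15.2 and 4.64 TPM in native RNA. The WT ladder libraries held 0.0201, 0.0247, 0 and 0 CPM of Ddx3y, and the KO ladder libraries 4.31, 4.3, 3.33 and 3.37. Xist, the RNA that coats an inactive X chromosome, went from 1.94 to 5.18 TPM in cDNA and from a mean of 151 ± 27.4 CPM in WT to 48.7 ± 10.1 CPM in KO ladder libraries (SD, n = 4 each). For the sex-linked genes the long reads and the ladder libraries therefore pointed in opposite directions. The labels do not say whether long-read and ladder samples of a genotype came from the same cultures, and the part of this difference in the results was not tested.

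The targeted gene was read in cDNA of both genotypes at the same summed level. Mettl14 stood at 1.68 TPM in WT and 1.68 TPM in KO, but its transcripts were different. In WT, 1.62 TPM came from a transcript with all 11 annotated exons, and 0.0662 TPM from a fragment over exons 1 to 5. In KO no assembled transcript held exons 7, 8 and 9, coding exons of 142, 93 and 117 bases. KO transcripts that joined exon 6 to exon 10 came to 0.565 TPM in a form that ran to exon 11 and 0.146 TPM in one that ended in exon 10. A further 0.252 TPM joined exon 5 to exon 11. The most abundant KO transcript, at 0.713 TPM, joined exon 4 to an exon beyond the annotated end of the gene through an intron at chr3:123323532-123380647 (GRCm38, minus strand). Native RNA held the same intron from exon 4 in KO, at 7.74 TPM. FLAIR gave 1 transcript per genotype, with 11 exons in WT and with the join from exon 6 to exon 10 in KO. The joins are printed as they read in the annotated exons, since they are what parts the genotypes at this gene. Letters are from the GENCODE M21 transcript on GRCm38, the end of exon 6 is in lower case, and capitals mark the start of exon 7 or of exon 10.
WT join, exon 6 to exon 7: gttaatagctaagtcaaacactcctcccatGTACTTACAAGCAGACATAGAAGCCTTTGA
KO join, exon 6 to exon 10: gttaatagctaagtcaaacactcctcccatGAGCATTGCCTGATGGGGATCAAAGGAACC

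In the ladder libraries Mettl14 stood at 24.9, 20.2, 28.4 and 27.6 CPM in WT and at 6.13, 8.07, 6.62 and 6.91 CPM in KO. The genotypes did not overlap. It fell by 1.87 on the log2 scale (SE 0.133, adjusted p = 5.37e-07, edgeR quasi-likelihood test with Benjamini-Hochberg adjustment). Of the 9 m6A writers listed, 7 were assembled from cDNA and none was past 4-fold. Mettl3, the catalytic partner, stood at 2.63 TPM in WT and 1.68 TPM in KO. Wtap, the adaptor that brings the enzyme to the splicing speckles, stood at 3.04 and 4.53 TPM, and Virma, its large scaffold, at 1.07 and 1.91 TPM. Zc3h13 was at 2.81 and 3.91 TPM, Cbll1 at 1.67 and 2.20 TPM, and Mettl16, a separate methyltransferase for a few structured RNAs, at 1.26 and 2.12 TPM. The edgeR test on ladder libraries gave 5 of the 7 as risen and 2 as fallen, Mettl14 and Mettl3. Among all genes with a cDNA level 29.8% rose and 24.6% fell there. Mettl3 was a marginal case (log2 change -0.27, edgeR adjusted p = 0.0359), lost under 9 alternatives with adjusted p of 0.0529 to 0.238, and the rise of Virma (adjusted p = 0.0327) was lost when any of 4 libraries was left out (0.0645 to 0.102).

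A gene was counted as higher or lower in cDNA when its level changed at least 4-fold after 0.1 TPM was added to both levels and the higher level was at least 1 TPM. Of 12277 genes assembled in either genotype, 497 were higher in KO (4.05%) and 330 were lower (2.69%). Relative to the median shift, 386 were higher (3.14%) and 400 lower (3.26%), so the excess of higher genes did not outlast centring. Most genes stayed close: 69.1% of the 8356 genes at 1 TPM or more in either genotype were within 2-fold after centring. There were 1257 genes assembled in WT alone and 687 in KO alone, at median levels of 0.258 and 0.319 TPM. In the ladder libraries edgeR called 26.4% of 18687 genes risen and 27.2% fallen at an adjusted p of 0.05, and among the 12106 tested genes with a cDNA level 29.8% rose and 24.6% fell.

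Of the genes higher in KO cDNA, 495 were tested in the ladder libraries, where 293 rose (59.2%), 47 fell (9.49%) and 155 did not pass. Of those lower in KO cDNA, 328 were tested, and 160 fell (48.8%), 56 rose (17.1%) and 112 did not pass. Native RNA was past 2-fold in the same direction for 259 of 475 higher genes (54.5%, against 14.3% of all genes read in both chemistries) and for 196 of 310 lower genes (63.2%, against 20.4%). It was past 2-fold the other way for 27 and 12 genes. The median ladder log2 change was 0.54 for higher genes and -0.33 for lower genes, smaller than the 4-fold that selected them. Across 6274 genes read in both, Pearson's r between cDNA and ladder log2 changes was 0.35 and Spearman's rho 0.374, as a description over genes, which are not independent replicates.

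Part of the calls turned on which gene a transcript was assigned to. Transcripts with introns of more than 1 gene made up 400 of the WT and 372 of the KO assembly (1.27% and 1.23%), at 404 TPM in each genotype. Only 29 of their chains were in both genotypes. When every transcript that held an intron of a gene was counted for it, a way of counting chosen after the data were seen, 458 genes were higher and 302 lower. The 44 higher genes lost by this count included 10 that rose and 10 that fell in the ladder libraries, and the 40 lost lower genes included 6 that fell and 16 that rose. Aldoa, the muscle-type aldolase of glycolysis, is an example: 39.1 TPM was assigned in KO and 0 in WT. There 16.5 TPM lay in shared transcripts, which held an intron of the gene but were not assigned to it. Ladder libraries had Aldoa at 2315, 2603, 2072 and 2025 CPM in WT and at 729, 860, 793 and 931 CPM in KO, without overlap, the other way (log2 change -1.44, edgeR adjusted p = 3.96e-06).

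Most, but not all, of the genes listed at 0 in 1 genotype that the naming rule took had such shared transcripts there. Those at 0 in WT were the ribosomal protein genes Rps15a (102 TPM in KO) and Rps26 (53.3), Aldoa, the glutathione peroxidase Gpx1 (31.4), the mitochondrial import subunit Tomm5 (31.2) and the pentose phosphate enzyme Pgls (29.8). In WT, shared transcripts held 21.6 TPM for Rps15a, 14.8 TPM for Rps26, 6.2 TPM for Gpx1, 0.374 TPM for Tomm5 and 3.67 TPM for Pgls. Those at 0 in KO were the cytochrome oxidase subunit Cox6a1 (101 TPM in WT), the nucleoside diphosphate kinase Nme2 (53.6), the ATP synthase subunit Atp5d (51.0), the tubulin Tuba1b (34.7), the diacylglycerol kinase Dgki (24.8) and Scand1 (17.2). Shared transcripts in KO held 13.6 TPM for Cox6a1, 32.2 TPM for Nme2, 12.1 TPM for Atp5d and 11 TPM for Tuba1b. Dgki and Scand1 had no such transcript. With shared transcripts counted, Rps15a, Gpx1, Tomm5, Pgls, Cox6a1, Atp5d, Dgki and Scand1 stayed past 4-fold. Rps26, Aldoa, Nme2 and Tuba1b did not. In ladder libraries Nme2 rose, against its cDNA call (log2 change 0.70, edgeR adjusted p = 0.0115). Rps15a, Rps26, Gpx1, Pgls, Cox6a1, Atp5d and Tuba1b did not pass there. In native RNA Dgki went from 5.15 to 2.36 TPM and Scand1 from 196 to 37.1 TPM, both lower in KO as in cDNA. In ladder libraries Dgki fell (log2 change -0.45, edgeR adjusted p = 0.00338), while Scand1 rose (0.88, edgeR adjusted p = 0.00449). Tomm5, with little in shared transcripts, went from 155 to 402 TPM in native RNA and rose in ladder libraries (0.83, edgeR adjusted p = 0.000667), as in cDNA. Ribosomal protein and tubulin genes have near-identical copies in the genome, and whether their reads were split between copies was not tested.

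Calls that all readouts shared were fewer. A total of 114 genes were higher and 67 lower in KO by both ways of counting cDNA, by 2-fold in native RNA, and by 2-fold with adjusted p under 0.05 and no overlap in ladder libraries. They came from 453 higher and 290 lower genes called by both ways of counting. Of all genes read in both chemistries, native RNA was past 2-fold higher for 14.3% and lower for 20.4%. Among all genes with a cDNA level 29.8% rose and 24.6% fell by any amount in ladder libraries. The share of all genes without overlap is not given. The genes named here were chosen after their values were seen. Ncl, the nucleolar protein nucleolin, went from 11.4 to 135 TPM in cDNA and from 194 to 586 TPM in native RNA. Its ladder levels were 375, 340, 464 and 440 CPM in WT and 854, 1054, 944 and 916 CPM in KO, which did not overlap (log2 change 1.22, SE 0.133, edgeR adjusted p = 1.48e-05). Nop2, a methyltransferase of ribosomal RNA, went from 0.787 to 8.92 TPM in cDNA. Tk1, the thymidine kinase of dividing cells, went from 3.12 to 33.5 TPM, and Fen1, the flap endonuclease of replication, from 2.09 to 18.1 TPM. Matn2, a matrix protein gene, went from 0.191 to 4.70 TPM in cDNA, with 4.62 ± 0.282 CPM in WT and 65.2 ± 7.35 CPM in KO ladder libraries (SD, n = 4 each). Among the lower genes, Ramp1, an accessory protein of the CGRP receptor, went from 9.65 to 1.17 TPM in cDNA, from 374 to 23.2 TPM in native RNA, and fell by 2.61 on the log2 scale in ladder libraries (edgeR adjusted p = 3.73e-07).

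Among genes above 0 in both genotypes, the 8 largest falls in cDNA were those of Peak1, Hes5, Dcakd, Uqcrb, Mrps21, Pla2g7, Paip2 and Nupr1. Hes5, a repressor that carries Notch signalling in progenitors, went from 40.5 to 0.484 TPM in cDNA and from 469 to 4.74 TPM in native RNA. Its ladder levels were 31.6, 34.5, 28.3 and 30.2 CPM in WT and 31.4, 31.6, 27.7 and 37.6 CPM in KO, so there the genotypes overlapped (log2 change 0.04, edgeR adjusted p = 0.774). Long reads and ladder libraries thus gave different answers for Hes5. Nupr1, a stress-induced chromatin protein, went from 13.3 to 0.333 TPM in cDNA and from 188 to 0 TPM in native RNA. In ladder libraries Nupr1 was at 30.4, 31.1, 43.9 and 36.1 CPM in WT and at 13.1, 11.2, 11.2 and 16.7 CPM in KO, without overlap (log2 change -1.43, edgeR adjusted p = 1.79e-05). Pla2g7, which breaks down platelet-activating factor, went from 13.6 to 0.296 TPM in cDNA and from 180 to 6.44 TPM in native RNA, with a smaller ladder change of -0.35 (edgeR adjusted p = 0.00608). Of the 8 falls, Nupr1, Pla2g7 and Paip2 fell in the ladder libraries as well. The call of Paip2 was lost without KO library 2 or KO library 3 (edgeR adjusted p = 0.0638 and 0.0564).

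Peak1, a pseudokinase of the cytoskeleton, showed the largest fall, from 80.7 to 0.251 TPM, and was listed at 0 in native RNA of both genotypes. Its WT level came from 1 transcript of 6 exons that ended at chr9:56223565, and in KO a single-exon transcript from chr9:56223564, which is assigned to no gene, stood at 149 TPM. In ladder libraries Peak1 rose (log2 change 1.12, edgeR adjusted p = 0.000669). Dcakd went from 10.5 to 0.142 TPM, Mrps21, of the mitochondrial ribosome, from 16.3 to 0.349 TPM, and Paip2, a regulator of poly(A)-binding protein, from 16.4 to 0.422 TPM. Shared transcripts, not assigned to the gene, held 0.365, 0.993 and 4.82 TPM in KO for those genes. Native RNA had Dcakd at 88.4 TPM in WT and 96.9 TPM in KO, and in ladder libraries it rose without overlap, from 54.1 ± 3.31 to 91.4 ± 5.63 CPM (SD, n = 4 each; log2 change 0.76, edgeR adjusted p = 4.9e-05). Mrps21 was at 187 and 216 TPM in native RNA and did not pass in ladder libraries (edgeR adjusted p = 0.171). Uqcrb, a subunit of respiratory complex III, went from 34.8 to 0.771 TPM in cDNA and from 552 to 450 TPM in native RNA, and did not pass in ladder libraries (log2 change -0.10, edgeR adjusted p = 0.574).

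The 8 largest rises were those of Psmd4, Mfsd5, Nxt1, Dynll1, Fabp7, Snhg8, Dpy30 and Ccdc85b. Nxt1, a cofactor of mRNA export, went from 0.468 to 28.8 TPM in cDNA and from 48.7 to 318 TPM in native RNA. In ladder libraries it was at 38, 36.6, 28.3 and 32.8 CPM in WT and at 107, 94.8, 84.8 and 137 CPM in KO, with no overlap (log2 change 1.64, edgeR adjusted p = 5.63e-06). Mfsd5, a membrane transporter of molybdate, went from 0.0912 to 11.6 TPM in cDNA, from 33.8 to 159 TPM in native RNA, and rose by 1.66 in ladder libraries (edgeR adjusted p = 4.83e-07). Dynll1, a light chain of dynein, went from 1.76 to 89.9 TPM in cDNA and rose by 0.52 in ladder libraries (edgeR adjusted p = 0.0139). These 3 genes were higher in KO in each readout, with smaller fold changes in ladder libraries than in cDNA, and without WT library 4 the adjusted p of Dynll1 was 0.0616. Ccdc85b went from 0.245 to 11.6 TPM and rose by 1.82 in ladder libraries (edgeR adjusted p = 6.64e-06), but no multi-exon transcript of it was in either FLAIR assembly, and a single-exon transcript over it held 4.06 TPM in WT. Psmd4, a ubiquitin receptor of the proteasome, went from 0.0673 to 11.7 TPM, the non-coding host gene Snhg8 from 0.259 to 14.3 TPM and Dpy30, a subunit of histone methyltransferases, from 0.439 to 18.3 TPM. None of these 3 passed the edgeR test in ladder libraries, where log2 changes were 0.12, -0.03 and 0.25.

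Fabp7, the fatty acid binding protein that marks radial glia, had the highest KO level among the rises, with 6.23 TPM in WT and 258 TPM in KO cDNA. Native RNA of the same genotypes gave 10092 TPM in WT and 3381 TPM in KO. Ladder levels of Fabp7 were 3855, 4144, 3878 and 3919 CPM in WT and 2420, 2170, 1901 and 3046 CPM in KO, which did not overlap (log2 change -0.73, SE 0.150, edgeR adjusted p = 0.00167). The cDNA rise of Fabp7 therefore went against both other readouts.

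Gene lists for the tissue and the perturbation were described by their counts past 4-fold and by the median centred log2 ratio, which was -0.06 over all genes assembled. Of the 8356 genes at 1 TPM or more in either genotype 5.95% were past 4-fold higher and 3.95% lower. Among lists with 5 or more genes assembled, cell cycle genes had the highest median: all 19 were assembled, 5 were past 4-fold higher and none lower, and their median was 1.16. In KO 11 of the 19 were 2-fold or more higher after centring, against 17.3% of all 12277 genes, and their summed level was 126 TPM in WT and 380 TPM in KO. E2f1, a transcription factor of S phase entry, was listed at 0 in WT and stood at 2.82 TPM in KO, and Ccne1, the cyclin of S phase onset, went from 0.875 to 5.55 TPM. Mcm2, a subunit of the replicative helicase, went from 0.773 to 6.46 TPM and did not pass in ladder libraries (edgeR adjusted p = 0.178). The D cyclins differed by readout. Ccnd2 went from 26.2 to 137 TPM in cDNA and from 146 to 226 TPM in native RNA, while its ladder levels were 1908, 2088, 1619 and 1337 CPM in WT and 994, 857, 782 and 816 CPM in KO, which did not overlap (log2 change -1.01, edgeR adjusted p = 0.000205). Ccnd1 likewise went from 7.87 to 40.4 TPM in cDNA and fell by 0.69 in ladder libraries (edgeR adjusted p = 0.0016). Of the 19 cell cycle genes 5 rose and 6 fell in the ladder libraries, against 29.8% and 24.6% of all genes with a cDNA level.

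**Figure D1:**
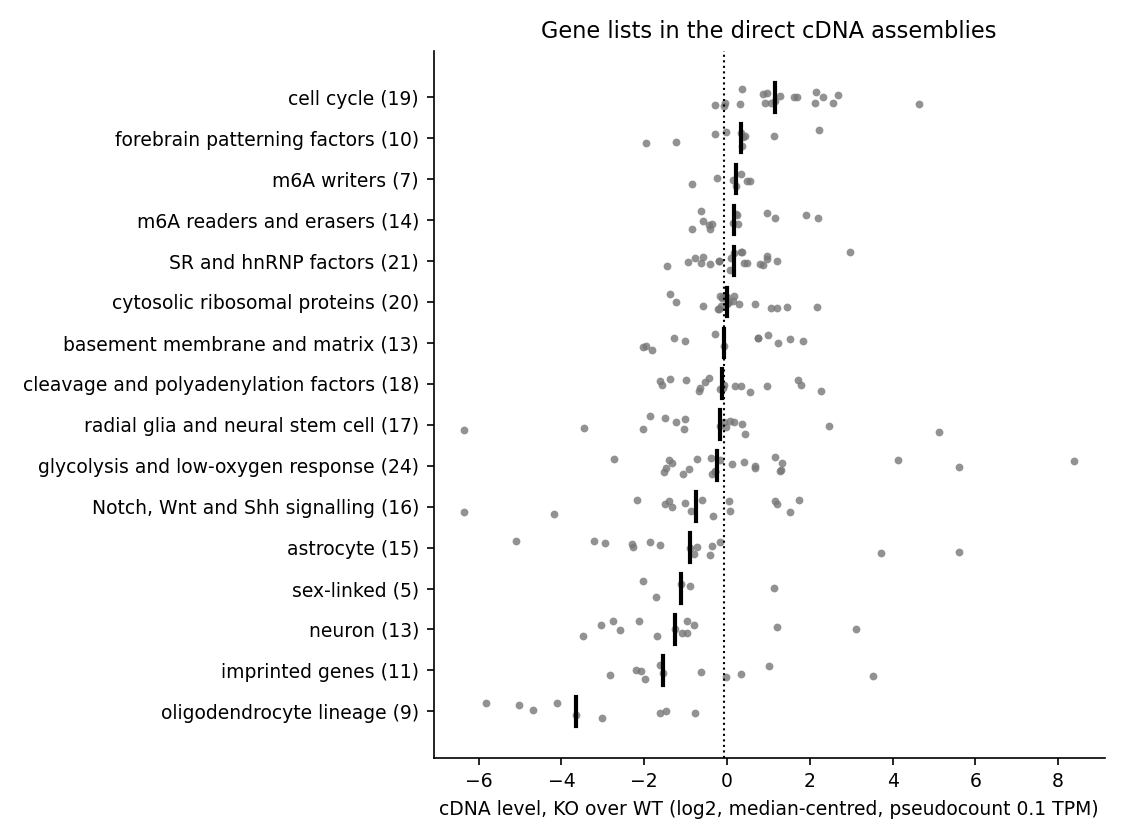
Each point is 1 gene of a list, placed by its centred log2 ratio of KO over WT level in the cDNA assemblies (1 assembly per genotype, 0.1 TPM added). Lists with 5 or more genes assembled are shown. Bars are list medians, from 1.16 for cell cycle genes to -3.64 for oligodendrocyte lineage genes, the dotted line is the median of all genes at -0.06, and numbers in brackets are the genes assembled.

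Oligodendrocyte lineage genes stood lowest, with a median of -3.64 over the 9 of 14 that were assembled and 5 past 4-fold lower. Pdgfra, the growth factor receptor of oligodendrocyte precursors, was at 4.71 TPM in WT cDNA and listed at 0 in KO, and at 59.3 and 0 TPM in native RNA. Its ladder levels were 96.2, 102, 82.1 and 68.5 CPM in WT and 5.18, 4.44, 4.07 and 4.57 CPM in KO, far from overlapping (log2 change -4.26, SE 0.156, edgeR adjusted p = 5.14e-09). Sox10, the transcription factor of the lineage, was at 2.66 TPM in WT and listed at 0 in KO, with ladder levels of 13.2, 7.4, 18.9 and 17.0 CPM in WT and 0.678, 0.832, 0.865 and 0.877 CPM in KO (log2 change -4.12, edgeR adjusted p = 4.13e-07). Gpr17, a receptor of committed precursors, and Bcas1, a gene of early myelinating cells, were at 2.09 and 1.37 TPM in WT and listed at 0 in KO. Gpr17 fell by 2.29 and Bcas1 by 3.09 on the log2 scale in ladder libraries (edgeR adjusted p = 4.06e-07 and 6.72e-08). Nkx2-2 went from 3.42 to 0.413 TPM in cDNA but did not pass in ladder libraries (edgeR adjusted p = 0.809). Olig2, which progenitors grown in FGF2 and EGF also express, was at 48.6 and 33.5 TPM. In these bulk samples fewer cells of a type and less RNA per cell cannot be told apart.

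Other lineage lists were mixed. Of 15 astrocyte genes assembled, 2 were past 4-fold higher and 2 lower, and with shared transcripts counted 1 was higher and 2 lower. Their median centred cDNA ratio was -0.9, against -0.06 over all genes, with 7 members 2-fold or more lower and 2 higher. In native RNA 12 were lower in KO by any amount and 1 higher, against 53.7% lower of all genes read there. Ladder libraries gave 9 as risen and 3 as fallen, against 29.8% and 24.6% of all genes with a cDNA level. Aldh1l1, a folate enzyme, went from 5.38 to 1.20 TPM. In ladder libraries Aldh1l1 fell as well, with a log2 change of -1.48 (edgeR adjusted p = 4.56e-05). Gja1, the gap junction protein connexin, went from 0.114 to 3.22 TPM in multi-exon transcripts, and a single-exon transcript over it held 4.65 TPM in WT. Gja1 rose by 2.14 in ladder libraries (edgeR adjusted p = 5.1e-07). Among 17 radial glia genes assembled, 2 were past 4-fold higher (Nes and Fabp7) and 1 lower (Hes5). Nes, the intermediate filament of neural stem cells, went from 2.26 to 15.1 TPM in cDNA and rose by 1.15 in ladder libraries (edgeR adjusted p = 0.000617). The neuronal list had a median of -1.26 over 13 genes with none past 4-fold lower, and 10 of the 12 members tested in the ladder libraries fell there (24.6% of all genes with a cDNA level fell). Its 2 members higher in KO cDNA were Gap43 and Gad1. Gad1, which makes the transmitter GABA and was chosen after its values were seen, went from 0.549 to 1.67 TPM and rose by 0.58 in ladder libraries (edgeR adjusted p = 0.00212). Gap43, a growth cone protein, was at 5.28 TPM in WT and 54.9 TPM in KO cDNA, and it went from 88.8 to 550 TPM in native RNA. In ladder libraries Gap43 fell by 0.49 (edgeR adjusted p = 0.00221).

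Signalling and patterning genes showed few changes past 4-fold in cDNA. Ladder counts here are changes of any size at an adjusted p under 0.05, so the counts of the readouts cannot be compared. Among all genes with a cDNA level 29.8% rose and 24.6% fell in ladder libraries. Of 16 Notch, Wnt and Shh genes assembled none was past 4-fold higher and 2 were lower, Hes5 and Dll3. Dll3, a Notch ligand that acts within the cell, went from 4.30 to 0.186 TPM in cDNA and fell by 1.45 in ladder libraries (edgeR adjusted p = 4.6e-06). In ladder libraries 6 of the 16 rose and 2 fell, with the Shh effectors Gli3 and Gli2 at log2 changes of 2.89 and 2.22 (edgeR adjusted p = 0.000101 and 1.48e-07), against 0.148 and 0.879 TPM for Gli3 and 0.395 and 1.25 TPM for Gli2 in cDNA. None of 10 forebrain patterning factors was past 4-fold, while 5 of the 8 tested in ladder libraries rose and none fell. Nr2f2, a nuclear receptor, was at 0.343 and 0.552 TPM in cDNA and rose by 5.08 in ladder libraries, and Sp8 was at 0 and 0.449 TPM and rose by 2.92 (edgeR adjusted p = 4.53e-09 and 4.65e-08). Gli2, Gli3, Nr2f2 and Sp8 were chosen after their values were seen. Lhx2, which specifies the cortex, was at 6.50 and 10.3 TPM in cDNA, whereas the ladder libraries gave means of 32.1 ± 10.1 CPM for WT and 179 ± 29.9 CPM for KO (SD, n = 4 each; log2 change 2.48, edgeR adjusted p = 4.07e-06). Of 13 basement membrane and matrix genes none was past 4-fold, and the highest, Bcan, the brain proteoglycan brevican, went from 28.7 to 8.67 TPM in cDNA and from 246 to 84.7 TPM in native RNA. In ladder libraries Bcan was at 838, 451, 1062 and 985 CPM in WT and at 1368, 1772, 1848 and 1739 CPM in KO, without overlap and in the opposite direction (log2 change 1.01, edgeR adjusted p = 0.00308). Of the 13, 5 rose and 2 fell in ladder libraries.

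Few genes that handle RNA were past 4-fold in cDNA. All 14 m6A readers and erasers were assembled, and 2 were past 4-fold higher. Ladder libraries gave 4 of the 13 tested as risen and 4 as fallen. They gave 8 of 21 SR and hnRNP factors as risen and 1 as fallen. For 18 cleavage and polyadenylation factors the counts were 4 risen and 6 fallen. Among all genes with a cDNA level 29.8% rose and 24.6% fell there. Ythdf1, a reader of the YTH family, went from 1.87 to 8.65 TPM and Ythdf2, the reader best known for recruiting decay enzymes, from 3.33 to 18.5 TPM. Ladder levels of Ythdf2 were 45.9, 41.9, 44.6 and 46.0 CPM in WT and 103, 112, 125 and 96.0 CPM in KO, without overlap (log2 change 1.29, SE 0.108, edgeR adjusted p = 1.86e-06). Ythdf1 rose by 1.16 in ladder libraries (edgeR adjusted p = 1.1e-05). Of 21 SR and hnRNP splicing factors 1 was past 4-fold, Tra2b, at 2.14 and 20.6 TPM, which rose by 0.56 in ladder libraries (edgeR adjusted p = 0.00117). Of 18 cleavage and polyadenylation factors 2 were past 4-fold higher, the kinase Clp1 at 0.505 and 3.35 TPM and Cstf1 at 1.86 and 7.85 TPM. Of 20 ribosomal protein genes 1 was past 4-fold, Rplp1, at 39.1 and 206 TPM, and their median was 0.01. Among 11 imprinted genes assembled, Peg10, a retrotransposon-derived placental gene, went from 0.508 to 8.07 TPM and Snrpn, a spliceosome component, from 10 to 1.58 TPM. Peg10 rose by 1.46 and Snrpn fell by 0.58 in ladder libraries (edgeR adjusted p = 5.84e-05 and 0.000385).

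Glycolysis and low-oxygen genes differed by readout. In ladder libraries 22 of 24 fell, against 24.6% of all genes with a cDNA level, and in native RNA 21 of 24 were lower in KO by any amount, against 53.7% of all genes read there. Their cDNA median was -0.24, 3 were past 4-fold higher and 1 lower, and 1 stayed higher when shared transcripts were counted. Slc16a3, the exporter of lactate, was the lower one, at 1.45 and 0.175 TPM in cDNA, at 40.8, 26.5, 45.0 and 43.4 CPM in WT ladder libraries and at 2.47, 2.90, 2.85 and 2.54 CPM in KO (log2 change -3.85, edgeR adjusted p = 2.05e-08). Ldha, which makes lactate, was at 48.1 TPM in WT and 75.2 TPM in KO, and Eno1, a glycolytic enolase, at 26.6 and 75.0 TPM, both higher in KO cDNA. In native RNA Ldha was at 1232 and 1199 TPM and Eno1 at 1273 and 1267 TPM, and both fell in ladder libraries (log2 change -1.60 and -0.95, edgeR adjusted p = 3.49e-07 and 2.44e-05). Pgk1 and Gpi1, of the same pathway, were at 30.5 and 18.8 TPM and at 34.6 and 19.4 TPM, both lower. Aldoc, the brain aldolase, was listed at 0 in WT and stood at 5.62 TPM in KO, with 6.22 TPM in shared WT transcripts. Egln3, a hydroxylase that senses oxygen, was listed at 0 in WT and stood at 1.97 TPM in KO. Both other readouts went the opposite way. Egln3 went from 54.9 to 28.3 TPM in native RNA and fell by 2.00 in ladder libraries (edgeR adjusted p = 5.45e-07). Ldha, Eno1, Pgk1 and Gpi1 were chosen after their values were seen.

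**Figure D2:**
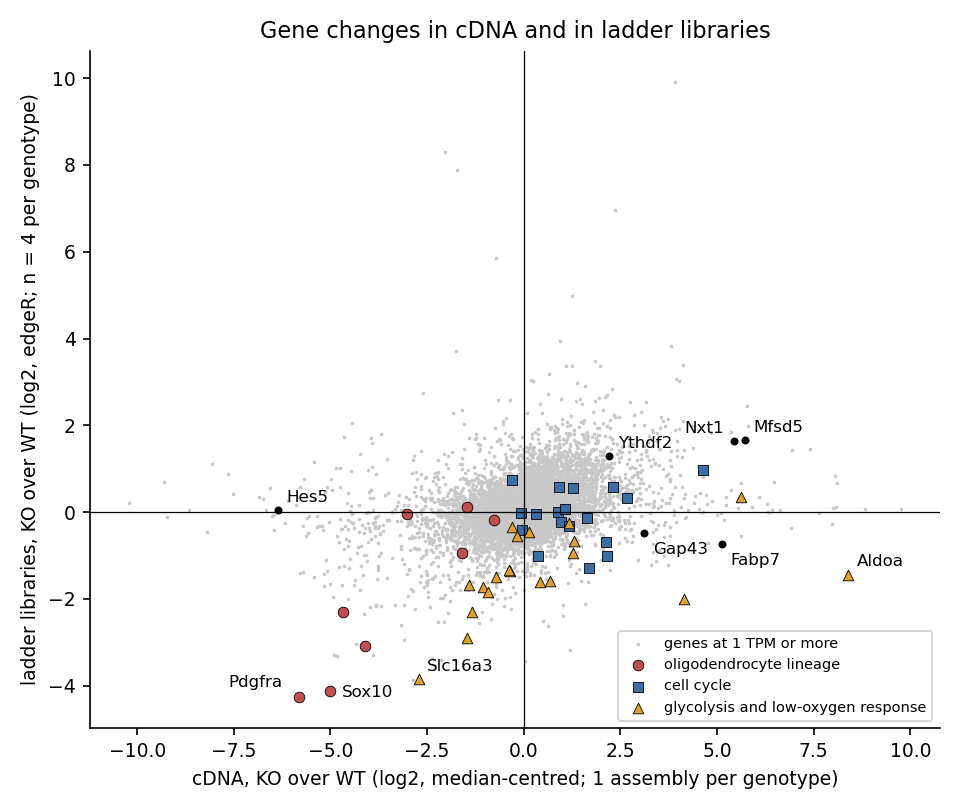
Each point is a gene at 1 TPM or more in either cDNA assembly, with its centred cDNA log2 ratio (1 assembly per genotype) on the x axis and its edgeR log2 change over 4 KO and 4 WT ladder libraries on the y axis. Oligodendrocyte genes such as Pdgfra lie low on both axes, while Aldoa, Fabp7 and Gap43 lie to the right in cDNA and below 0 in ladder libraries.

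Genes with few introns changed more often. Genes called higher had a median of 5 annotated introns and genes called lower 6, against 8 for all genes at 1 TPM or more in either genotype. With 1 or 2 introns, 15.8% of 710 genes were past 4-fold higher and 8.59% lower, and with 21 or more introns 2.22% of 989 genes were higher and 3.44% lower. The median centred cDNA ratio was 0.36 for genes with 1 or 2 introns, 0.16 with 3 to 5, 0.04 with 6 to 10, -0.02 with 11 to 20 and -0.05 beyond. In ladder libraries rises were also more frequent with few introns, at 48.4% of genes with 1 or 2 introns and 20.2% of genes with 21 or more. Falls there ran the other way from cDNA, at 15.4% and 22.4%. By transcript length the share past 4-fold higher went from 10.7% of genes up to 1000 bases to 2.39% of genes beyond 8000 bases, while cDNA medians over length classes ranged only from -0.02 to 0.06. The level of m6A was not measured in these files.

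**Figure D3:**
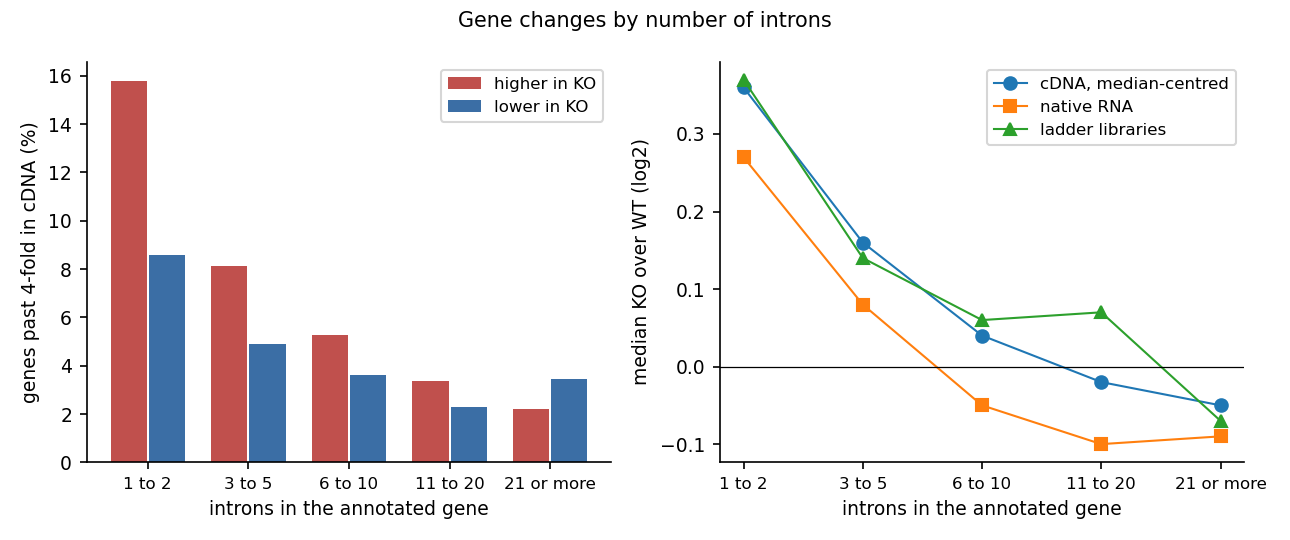
Left, the percentage of genes at 1 TPM or more in either genotype that were past 4-fold higher or lower in KO cDNA, by number of annotated introns, falling from 15.8% to 2.22% for higher genes. Right, the median log2 ratio of KO over WT in the same classes, for cDNA (centred), native RNA and ladder libraries, each highest for genes with 1 or 2 introns (0.36, 0.27 and 0.37).

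Intron chains were compared next, with an exact match of every intron end. KO and WT shared 13238 chains, which were 43.9% of the 30173 KO chains (95% Wilson interval 43.3 to 44.4) and 42.0% of the 31499 WT chains (41.5 to 42.6). Intervals of this kind cover counting error only. Sharing followed the level of the chain. Of KO chains below 0.2 TPM, 13.8% were found in WT, and of those at 20 TPM or more 92.6% were. For WT chains the same shares were 13.9% and 91.3%. Among shared chains 72.8% were annotated. Chains held by KO alone numbered 16935, with a median of 0.216 TPM and 13.8% annotated, and chains held by WT alone 18261, with a median of 0.173 TPM and 16.8% annotated. An unannotated intron was in 39.0% of chains of KO alone and in 29.0% of chains of WT alone. Counted as introns, 7645 of KO introns (6.27%) and 6132 of WT introns (4.85%) were unannotated, against 2.4% and 2.04% in FLAIR. FLAIR held 13.8% of the unannotated WT introns and 14.5% of those in KO.

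**Figure D4:**
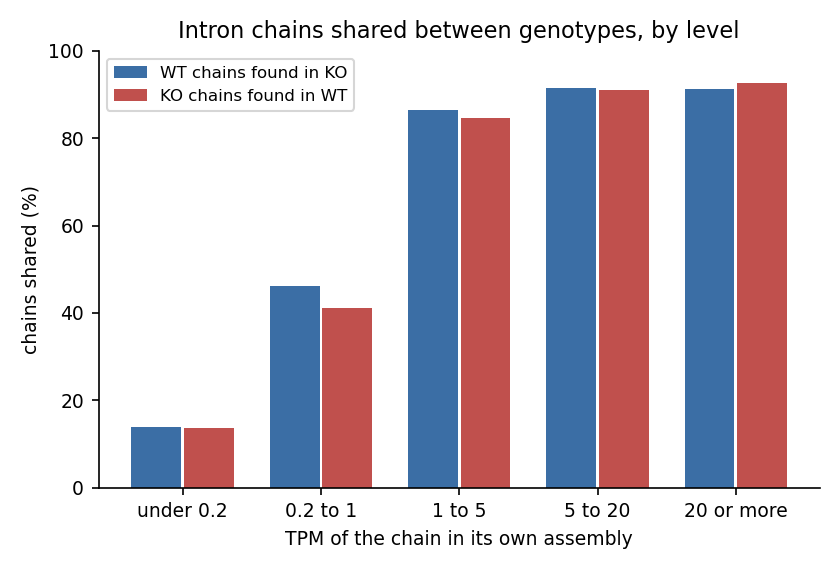
Bars give the percentage of intron chains of 1 genotype that were also assembled in the other, by the chain's TPM in its own StringTie assembly. The share rises from 13.9% (WT) and 13.8% (KO) below 0.2 TPM to 91.3% and 92.6% at 20 TPM or more.

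Chains absent from the annotation, held by both assemblers in KO and by neither in WT, numbered 1565, and 1821 were held likewise in WT. The most abundant in KO was one of Kalrn, a guanine exchange factor of dendrites, with 16 exons at chr16:34006576-34116460 (minus strand) and 9.93 TPM. In WT, Kalrn stood at 10.4 TPM, of which 10.1 TPM was a transcript of 14 exons over chr16:34006742-34053664, so the gene's level was alike while the 5′ end of its main transcript was not. WT also held a transcript of 2 exons that began at chr16:34116465, at 0.182 TPM. Pcbp4, a poly(C)-binding protein, had a KO chain of 14 exons at 5.30 TPM with an unannotated intron of 267 bases, chr9:106453643-106453909 (plus strand), not found in WT. The other named chains of KO belonged to Chpf2 (5.56 TPM), Rsbn1l (2.80), Tor1aip2 (2.70) and Atp5e (2.60). In WT the most abundant was a chain of 7 exons of the tetraspanin Cd63, at 55.2 TPM of the gene's 68.8 TPM, while KO held an annotated chain of 8 exons at 79.9 TPM. The WT chain matched part of an annotated chain and began downstream of the KO transcript's start. The others in WT belonged to Orc5, of the replication origin complex (10.8 TPM), the receptor phosphatase Ptprz1 (9.30), Rab14 (6.17), St13 (4.58) and Mad2l2 (3.79).

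Transcript ends were compared over 5421 chains at 1 TPM or more in both genotypes. The median shift of the 3′ end was 0 bases, and 68.7% of chains ended within 10 bases of each other. The 3′ end lay more than 50 bases downstream in KO for 10.7% (9.9 to 11.5) and upstream for 11.7% (10.9 to 12.6). At the 5′ end 13.7% lay downstream and 11.7% upstream. Shifts were thus nearly balanced in direction. They were rarely seen by the other assembler: of 236 chains with a shifted 3′ end at 5 TPM or more that FLAIR also held in both genotypes, 5 were shifted the same way and 6 the opposite way in FLAIR. The letters AATAAA, the main polyadenylation signal, were searched on the transcript strand within 50 bases before ends of annotated chains. An end was used if it fell in the annotated last exon or up to 20 bases past it. Ends with fewer than 50 bases of that exon before them were left out. They were present for 70.8% of unmoved ends in both genotypes. Where the KO end lay upstream (595 chains) they were present for 46.2% of 526 KO ends and 51.8% of 255 WT ends. Where it lay downstream (524 chains) they were present for 48.8% of 213 KO ends and 51.3% of 446 WT ends. For moved ends the shares of the genotypes thus rest on partly different chains. Of all windows of this length in the same last exons 2.87% held them. A match describes the letters and does not show a site in use.

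The naming rule took 5 chains in each direction among those whose assemblers moved the same way. Sdc3, a heparan sulfate proteoglycan of neurons, ended 2482 bases upstream in KO, at 13.5 TPM in WT and 13.4 TPM in KO. The others upstream were Rad23b (2170 bases), Sept9 (1611), Rpl10a (1465) and Abhd17b (1439). FLAIR moved these by 6, 3, 12, 1 and 268 bases, so by far less. For Rpl10a the KO end was 1 base from the annotated end, and the WT end 1466 bases past it. Mthfd2, an enzyme of mitochondrial folate metabolism, ended 1094 bases downstream in KO, at 10.8 TPM in WT and 8.01 TPM in KO. FLAIR moved it by 711 bases, and its KO end fell on the annotated end. Ube2r2 (777 bases), Sys1 (383), Rpl36a (114) and Lta4h (73) followed, with FLAIR shifts of 77, 46, 6 and 1 bases. Stretches of 30 bases at or just before 3 of these ends are shown, since they part an end that has a polyadenylation signal from one that has none. Letters are from GENCODE M21 transcripts on GRCm38, and capitals mark AATAAA.
Sdc3, WT end, chr4:130826290-130826319: aagaggaAATAAAattaagctgaaagatgt
Sdc3, KO end, chr4:130823810-130823839: tataccagccacactgatgctgatcccagc
Mthfd2, KO end, chr6:83305703-83305732 (minus strand): taAATAAAgctcatctgtcgggtgtggaat

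The leading chain of a gene, the one with the largest share of its TPM, differed between genotypes with a shift of at least 20 points for 185 of 1757 genes at 5 TPM or more in both (10.5%). Both leading chains were annotated for 48 genes. In ladder libraries, transcript usage was called by diffSpliceDGE for 2432 of 40515 transcripts (6.0%). Of 47 genes with a leading transcript tested there, usage moved the same way as in cDNA for 3, Eci2, Papola and Pja1, and only the other way for 2, Bcas2 and Tcf25. Pja1, a ubiquitin ligase, had Pja1-205 at 60.3% of its WT cDNA and 15.7% of its KO cDNA, and at 59.3 ± 5.20% and 27.9 ± 1.95% of its ladder counts (SD, n = 4 each; usage log2 change -0.76, edgeR diffSpliceDGE adjusted p = 0.00268). Bcas2, a splicing factor, was led in KO cDNA by Bcas2-206, a form annotated as a target of nonsense-mediated decay, at 1.80% in WT and 91.8% in KO. In ladder libraries that form was at 6.69 ± 1.16% in WT and 2.24 ± 0.269% in KO (SD, n = 4 each; usage log2 change -1.10, edgeR diffSpliceDGE adjusted p = 0.0114). Papola, the poly(A) polymerase, had Papola-211 at 61.6% of WT and 13.8% of KO cDNA, and at 6.37 ± 1.28% and 1.08 ± 0.958% in ladder libraries (SD, n = 4 each; usage log2 change -1.78, edgeR diffSpliceDGE adjusted p = 0.00013). Eci2, an enzyme of fatty acid oxidation, had Eci2-201 at 9.15% of WT and 35.2% of KO cDNA, and at 15.4 ± 1.35% and 33.7 ± 3.04% in ladder libraries. Tcf25 had Tcf25-202 at 57.0% of WT and 38.7% of KO cDNA, but at 23.9 ± 3.29% and 41.3 ± 2.31% in ladder libraries. Eci2, Papola, Pja1 and Tcf25 lie outside the naming rule and were chosen after their values were seen.

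The rule took 8 genes with the largest moved share: Rpl37, Set, Mrpl20, Ddx17, Bcas2, Rpl22l1, Tcf3 and Bex3. Their shares moved by 90.2 to 100 points. As exact chains, the form that led in 1 genotype was in neither FLAIR assembly for Rpl37, Mrpl20, Bcas2, Rpl22l1 and Bex3. For 33 of the 48 genes the leading forms were parted by introns of their own, and a transcript was counted for the form whose introns it held. Transcripts with such introns of neither form, or of both, were left out. In native RNA the form that led in KO cDNA was higher in KO by 20 points or more for 10 of 31 genes, lower for 1 and within 20 points for 20. In ladder libraries it was within 20 points for all 33 and within 5 for 21. Both forms were in both FLAIR assemblies for 32 of the 33. Most switches in cDNA were therefore not seen at that size in the other readouts.

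Tcf3, a basic helix-loop-helix transcription factor of progenitors and lymphocytes, carries a pair of mutually exclusive coding exons for that DNA-binding region. WT cDNA was led by Tcf3-210, with an exon of 236 bases at chr10:80412827-80413062, and KO cDNA by Tcf3-209, with an exon of 227 bases at chr10:80410398-80410624 (GRCm38, minus strand). The share of the KO-leading exon was 1.41% in WT and 95.1% in KO cDNA, and 4.34% and 100% in native RNA. In ladder libraries it was 52.0, 50.0, 53.5 and 54.0% in WT and 65.0, 64.5, 63.9 and 65.3% in KO. All KO libraries lay above all WT libraries, with means of 52.4 ± 1.76% and 64.7 ± 0.629% (SD, n = 4 each; exact two-sided permutation p = 0.0286, the smallest this design allows). The gene's cDNA level was nearly the same, at 5.27 TPM in WT and 5.91 TPM in KO. As whole transcripts, the forms did not pass the planned usage test in ladder libraries (edgeR diffSpliceDGE adjusted p = 0.207 for Tcf3-210 and 0.648 for Tcf3-209). Both exons are shown because they are what parts the coding sequences of these forms, of 1953 and 1944 bases, although the annotated transcripts also differ outside the coding sequence at both ends. Letters are from GENCODE M21 transcripts, and capitals mark runs of 12 or more bases that both exons hold.
Tcf3-210, led in WT: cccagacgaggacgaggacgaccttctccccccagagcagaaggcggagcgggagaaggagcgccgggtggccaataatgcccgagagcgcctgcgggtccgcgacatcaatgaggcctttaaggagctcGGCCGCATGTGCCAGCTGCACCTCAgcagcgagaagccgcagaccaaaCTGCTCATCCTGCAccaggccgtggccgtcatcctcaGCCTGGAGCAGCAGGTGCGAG
Tcf3-209, led in KO: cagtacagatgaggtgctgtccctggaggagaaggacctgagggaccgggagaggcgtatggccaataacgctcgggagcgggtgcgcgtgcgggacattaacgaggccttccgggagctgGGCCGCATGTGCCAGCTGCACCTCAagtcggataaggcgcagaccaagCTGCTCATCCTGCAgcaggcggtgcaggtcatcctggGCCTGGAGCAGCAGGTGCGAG

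Set, a histone chaperone and inhibitor of protein phosphatase, has alternative coding exons at its start. Set-201, which led in WT cDNA, begins its coding sequence with 73 bases at chr2:30066821-30066893, and Set-202, which led in KO cDNA, with 109 bases at chr2:30062172-30062280 (plus strand). Set-202 was at 0% of both forms in WT cDNA and 100% in KO cDNA, and at 25.7% and 43.7% in native RNA. Its ladder shares were 10.8, 10.6, 11 and 10.1% in WT and 14, 13.3, 12.9 and 12.9% in KO, without overlap, with means of 10.6 ± 0.366% and 13.3 ± 0.525% (SD, n = 4 each; exact two-sided permutation p = 0.0286). The planned usage test on whole transcripts did not pass (edgeR diffSpliceDGE adjusted p = 1.0 for Set-201 and 0.885 for Set-202). All readouts had more of Set-202 in KO, by 100 points in cDNA and by about 3 points in ladder libraries. The coding starts are printed because they give the forms different amino termini. Capitals mark the start codon.
Set-201, led in WT: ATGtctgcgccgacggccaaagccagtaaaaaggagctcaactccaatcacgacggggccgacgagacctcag
Set-202, led in KO: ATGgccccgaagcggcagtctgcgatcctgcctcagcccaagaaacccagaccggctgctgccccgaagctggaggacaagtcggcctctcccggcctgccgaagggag

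Ddx17, an RNA helicase of splicing and microRNA processing, switched between splice sites a few bases apart. Its KO-leading form Ddx17-201 keeps 6 coding bases at an exon end that the WT-leading form Ddx17-203 lacks. Ddx17-201 was at 0% in WT and 100% in KO cDNA. It was at 0% in native RNA of both genotypes, where both forms together held 52.9 TPM in WT but only 1.74 TPM in KO. In ladder libraries its share was 5.26, 9.69, 13.9 and 33.0% in WT and 25.9, 26, 24.8 and 35.5% in KO, so the genotypes overlapped (means 15.5 ± 12.2% and 28.1 ± 5.00%, SD, n = 4 each; exact two-sided permutation p = 0.114). The joins are shown because the forms differ by these 6 bases alone. Letters are from GENCODE M21 transcripts over chr15:79530488-79531707 (minus strand), and capitals mark the extra bases.
Ddx17-203, led in WT: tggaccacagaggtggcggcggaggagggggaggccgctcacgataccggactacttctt
Ddx17-201, led in KO: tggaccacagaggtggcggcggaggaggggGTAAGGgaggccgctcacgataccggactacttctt

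Rpl22l1, a paralogue of a ribosomal protein, is the contrasting case. Its KO-leading form was at 9.19% in WT and 100% in KO cDNA, but at 100% in native RNA of both genotypes. In ladder libraries it was at 96.8 ± 0.332% in WT and 96.8 ± 0.422% in KO (SD, n = 4 each; exact two-sided permutation p = 0.771). The WT cDNA assembly thus stood apart from every other readout at this gene.

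**Figure D5:**
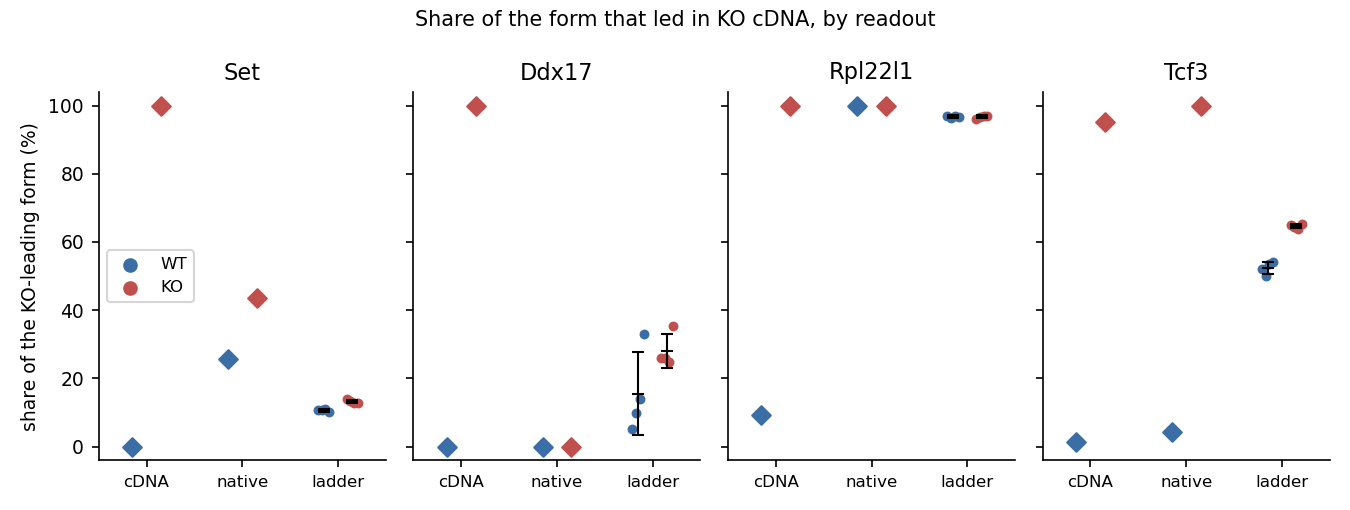
Share of the form that led in KO cDNA among both forms, for 4 named genes, in cDNA and native RNA (diamonds, 1 assembly per genotype) and in ladder libraries (points, n = 4 per genotype, with mean and SD). Tcf3 and Set are higher in KO in each readout, with ladder means of 52.4% and 64.7% for Tcf3, while Rpl22l1 is at 96.8% in both genotypes of the ladder libraries.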

How the data were processed

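Assemblies of direct cDNA and native RNA came from the authors as transcript structures on GRCm38 (mm10). StringTie 2.0 ran in long-read mode, per the file headers, and minimap2 2.17 is listed in the submitters' processing notes. The deposited TPM and coverage of each assembled transcript are the StringTie output, with samples of a genotype pooled. FLAIR structures were deposited without abundances, and the FLAIR version was not stated. The ladder values are estimated counts per transcript, deposited by the authors from kallisto, per the submitters' processing notes.

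Introns were matched exactly, on the same strand. A transcript with introns of several genes went to the gene with the most, and ties to none. Genes without introns, or with single-exon transcripts only, have no cDNA level. Log2 ratios in cDNA used a pseudocount of 0.1 TPM, native ratios 1 TPM. Estimated counts were summed per gene and rounded. In edgeR 4.0.16 under R 4.3.3, genes passed filterByExpr, were normalized by TMM and entered a robust quasi-likelihood test. Usage was tested by diffSpliceDGE, and p was adjusted by Benjamini and Hochberg over all genes or transcripts. CPM are counts scaled to library totals after TMM. Targets outside the annotation, leaving 86.6% to 88.1% of counts, stayed in totals only. DESeq2 1.42.0 served as an alternative. Statistics were tested on simulated data. p-values measure the spread between these samples, which may be technical.

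The rule named the m6A writers, the 8 largest rises and falls above 0 in both genotypes, 6 genes at 0 in each, up to 2 rises and 2 falls past 4-fold of each of 19 lists (or the highest member), 6 chains, 8 leading chains and 5 ends per direction. A gene that the rule took is not reported here. Members, lists and rules were chosen with earlier results of these data known. Python 3.11.15 was used for structures.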

Additional observations from a re-analysis of the deposited data

Results flagged for a closer look

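Of 128 groups of 4 ladder libraries looked at for the named genes and forms, 3 held a library that lay far from the other members of its group. Chance marks about 1 in 20 such groups. Rps15a, listed at 0 in WT cDNA, stood at 935 CPM in WT library 3, against 711, 718 and 726 CPM in the other WT libraries. Mfsd5, among the largest rises in cDNA, stood at 67.6 CPM in KO library 3, against 59.5, 60.3 and 60.9 CPM in the other KO libraries, all above every WT library. The share of Ddx17-201 was 35.5% in KO library 4, against 24.8, 25.9 and 26% in the other KO libraries.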

How the results depend on the processing

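No named gene's ladder change turned sign under the alternatives run. The balance of higher to lower cDNA genes did turn, from 497 to 330 as deposited to 386 to 400 after centring, and upstream 3′ ends outnumbered downstream ones except at 5 TPM or more. With a pseudocount of 1 TPM, 153 genes were higher and 87 lower in cDNA; at 2-fold they were 1866 and 891, with no minimum level 786 and 768, and at 5 TPM or more 220 and 96. Shared chains were 58.1% of KO and 54.4% of WT chains in FLAIR, and 61.6% and 67.7% at 0.5 TPM or more. For 3′ ends, the downstream share was 9.02% beyond 100 bases, 9.2% at 5 TPM or more and 6.73% in FLAIR, and the upstream share 10.3%, 8.36% and 8.37%. For 5′ ends, the downstream share was 9.02%, 12.4% and 7.15%, and the upstream share 7.54% beyond 100 bases and 5.6% in FLAIR. Leading chains differed for 496 genes at 2 TPM or more and for 45 among annotated chains only. Genes higher in cDNA and risen in ladder libraries numbered 150 at 2-fold in the ladder and 1045 at 2-fold in cDNA; genes lower and fallen numbered 81 and 366, and 98 among genes held by both FLAIR assemblies, an alternative added after the data were seen.

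With each ladder library left out in turn, risen genes ranged from 4451 to 4855, fallen genes from 4508 to 5274, higher and risen genes from 276 to 290, lower and fallen genes from 145 to 165, called transcripts from 1700 to 2021 and leading-chain genes with usage moved the same way from 2 to 5, the 5 without KO library 3. Among named genes, single ladder calls were lost under 1 or more alternatives for Mettl3 (9), Rplp1 (6, adjusted p of 0.06 to 0.119), Virma (4), Paip2 (3), Dynll1 (1) and Pla2g7 (1, 0.0784 without a filter on low counts), and gained for Atp5d without KO library 4 (0.0283) and Mrps21 without WT library 3 (0.0391). With the replicate number as a block, 4922 genes rose, 5027 fell and 2087 transcripts were called; same-numbered libraries deviated with correlations of -0.0234 to 0.0535 and no library matched its own number best, so the numbers do not pair the samples. Causes were not tested. Pooling leaves every cDNA value without replicate error, and low levels rest on about 1 read.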
